A study of Arabidopsis thaliana with 59 samples.

Results

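The GASA family of Arabidopsis, small gibberellin-regulated peptides, was followed in rosette leaves of 10 accessions kept in wet or drying soil. The 10 members were taken by locus: GASA1 (AT1G75750), GASA2 (AT4G09610), GASA3 (AT4G09600), GASA4 (AT5G15230), GASA5 (AT3G02885), GASA6 (AT1G74670), AT1G22690 (GASA9 in the list used to choose them), GASA10 (AT5G59845), GASA11 (AT2G18420) and GASA14 (AT5G14920). All 10 had a row among the 20728 loci of the deposited table. GASA1 and AT1G22690 were selected on their large falls in dry leaves, and their drying difference is given here as a description with no p-value, and the other 8 members were tested.

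GASA genes encode secreted, cysteine-rich peptides that are cut from longer precursors and share a conserved C-terminal domain. Many of them respond to gibberellin, the hormone that removes the DELLA repressors of growth, and some respond to abscisic acid, the hormone of water deficit, in the opposite direction. Members have been tied to cell elongation, leaf expansion, flowering time, germination and redox balance.

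The study crossed 10 accessions (Col, Ler, Bur-0, CIBC-17, KNOX-18, HR-5, NFA-10, Ts-1, SQ-8 and Ws-2) with 2 watering levels, on 30 wet and 29 dry arrays. In wet pots the water remaining was kept close to 90%, and in dry pots it was lowered a step each day to about 50% on day 5. Each accession had 3 numbered biological replicates per watering level, except KNOX-18 dry, which had numbers 1 and 3. All plants stood alone in a pot under a 10 h photoperiod, and the labels give no mutation, transgene or further agent in any group. Plant age, the hour of harvest, the number of plants behind an array and what the replicate numbers stand for are not given in the labels. The p-values measure the spread between these arrays. Unless stated, replicate number was not in the model, so that spread includes differences between numbers.

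Expression values are on a log2 scale, from 3.066 to 14.06, with array medians between 5.496 and 5.621. The measured leaf genes LHCB3 and RCA averaged 13.2 to 13.3, whereas means of the 5 seed markers measured lay between 3.23 and 4.09 and those of the 5 flower markers between 3.51 and 4.44. For 58 of 59 arrays the accession profile was nearest to the accession on the label. The array labelled Ler wet 3 was nearer to Col (r = 0.341) than to Ler (r = 0.247). In a check by single loci, 53 of its 90 separating loci (58.9%) were nearer to Ler. On the other Ler arrays that share was 80.6% to 97.1%. The array labelled Col wet 3 carries the stock number of Ws-2, but 42 of 48 loci that separate Col from Ws-2 were nearer to Col. Without both arrays the drying difference was -2.75 for GASA1, -2.16 for AT1G22690, 1.24 for GASA4 and 0.89 for GASA6.

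The first comparison asked how the members differed between wet and dry leaves on average over the accessions. GASA1 and AT1G22690 were lower in dry leaves in 10 of 10 accessions, while GASA4 and GASA6 were higher in 10 of 10. Of the 8 tested members, 3 rose (GASA3, GASA4 and GASA6), 1 fell (GASA11), and 4 did not pass an adjusted p of 0.05 (GASA2, GASA5, GASA10 and GASA14). Over all loci, 29.3% passed, 15.5% higher and 13.8% lower in dry leaves. The changes of GASA3 and GASA11 were small and lay at the bottom of the scale.

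**Figure D1:**
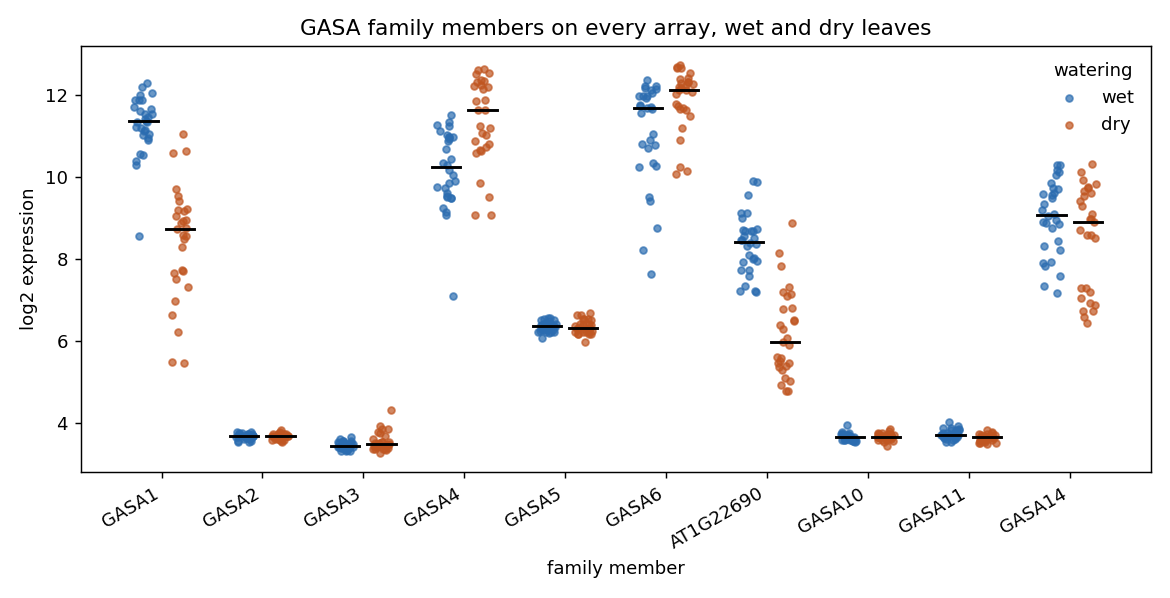
Log2 expression of the 10 members on every array, with wet arrays in blue, dry arrays in orange and the median of each as a bar. GASA1 and AT1G22690 were lower in dry leaves, GASA4 and GASA6 were higher, and GASA2, GASA3, GASA10 and GASA11 stayed between 3.278 and 4.322 on all arrays.

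GASA1, a gene induced by gibberellin in many tissues and repressed by brassinosteroid, ranged from 8.56 to 12.3 in wet leaves, with a median of 11.36. In dry leaves it ranged from 5.46 to 11.04, with a median of 8.74. The means over accessions were 11.27 and 8.47, a difference of -2.81 ± 0.25 (SE), or 6.99-fold. In 9 of 10 accessions every dry array lay below every wet array, and the exception was Bur-0, whose wet array 1 (8.56) lay below its dry array 3 (9.42). AT1G22690 ranged from 7.21 to 9.89 in wet leaves (median 8.42) and from 4.79 to 8.87 in dry leaves (median 5.97). Its means were 8.37 and 6.16, a difference of -2.21 ± 0.19, or 4.62-fold. It too had no overlap in 9 of 10 accessions, with Ts-1 as the exception. Of all loci, 0.125% had dry arrays below wet arrays in at least 9 accessions, but since both genes were picked for this difference nothing is read from that share.

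The fitted dry minus wet value of GASA1 ran from -4.69 in Ler to -1.68 in Ts-1, a spread that did not pass the test of a difference among accessions (limma adjusted p = 0.746). In Ler the wet arrays read 10.91, 11.35 and 12.3 and the dry arrays 5.46, 5.48 and 9.54, a difference of -4.69 ± 0.78. In HR-5 the wet arrays read 10.3, 11.47 and 11.65 and the dry arrays 7.66, 6.21 and 7.52, a difference of -4.01. In Col the wet arrays read 11.22, 11.61 and 11.88 and the dry arrays 6.98, 8.57 and 7.74, a difference of -3.81. These were the 3 accessions with the largest differences, and in Ler the dry arrays were far apart, with number 3 well above the other two. Without the array labelled Ler wet 3 the difference was -4.30 in Ler and -2.77 as the mean over accessions, and without Col wet 3 it was -3.65 in Col. The smallest difference was in Ts-1, at -1.68, where the dry array 1 (11.04) lay just under the lowest wet array (11.05). The other 6 accessions lay between -2.68 in CIBC-17 and -2.07 in NFA-10.

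AT1G22690 had its largest difference in Col, at -3.72 ± 0.59, with wet arrays at 9.56, 9 and 9.87 and dry arrays at 5.46, 6.30 and 5.52. In Ts-1 the wet arrays read 9.11, 8.71 and 7.33 and the dry arrays 8.87, 7.33 and 8.15, a difference of -0.27 ± 0.59. Without Col wet 3 the difference in Col was -3.52. In Ts-1 the wet and dry ranges thus lay over each other, and in the remaining 8 accessions the difference ran from -2.65 in HR-5 to -1.64 in SQ-8. Ts-1 was therefore the accession with the smallest difference for both genes. Its dry array 1 was the highest of all dry arrays for both, at 11.04 for GASA1 and 8.87 for AT1G22690. The other Ts-1 dry arrays of GASA1 read 8.59 and 10.58. The results of the 2 genes thus share that array, and the differences without it are not given here.

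**Figure D2:**
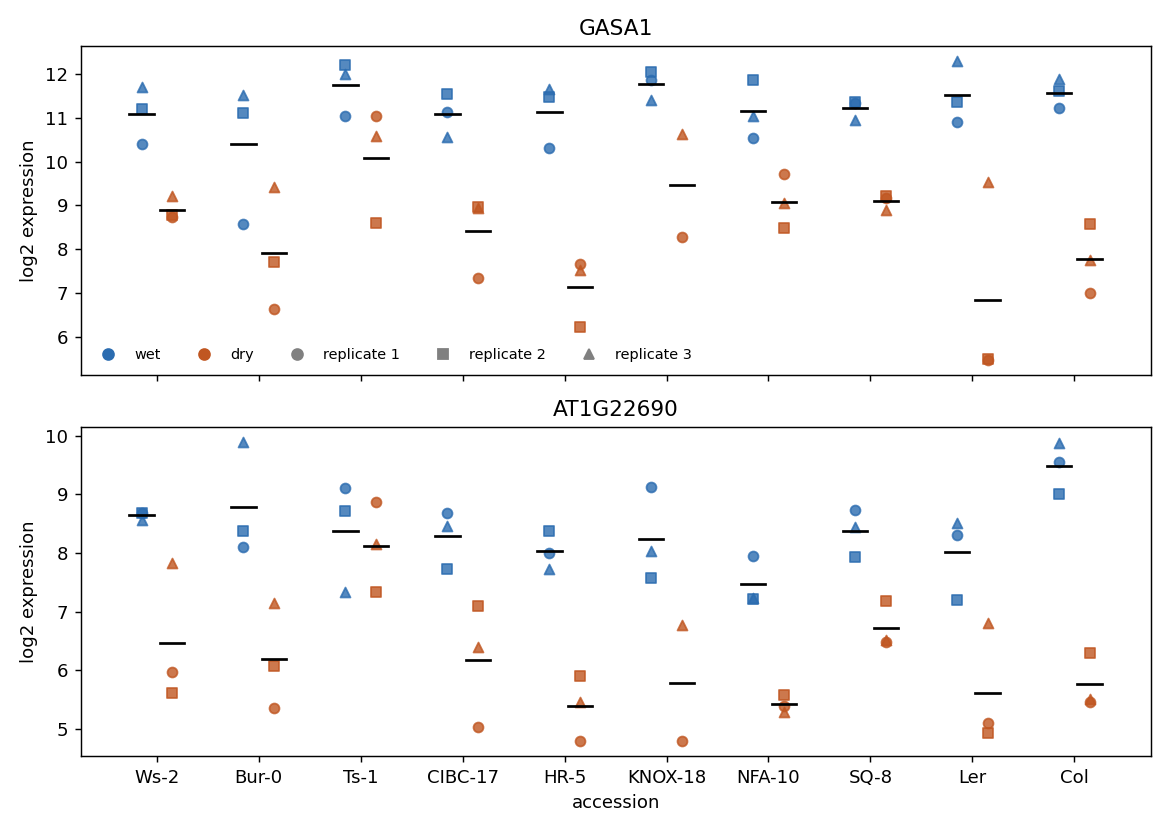
Log2 expression of GASA1 and AT1G22690 in each accession, with wet arrays in blue, dry arrays in orange, the replicate number as the symbol and the group mean as a bar. For GASA1 the dry means run from 10.07 in Ts-1 to 6.83 in Ler, and for AT1G22690 the wet and dry arrays of Ts-1 lie over each other.

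GASA4, a gibberellin-induced gene of growing tissue with a part in flowering and seed germination, rose. Its level ranged from 7.11 to 11.52 in wet leaves (median 10.23) and from 9.08 to 12.64 in dry leaves (median 11.62). The wet and dry ranges overlapped widely, and every dry array lay above every wet array in 1 of 10 accessions, a count for which the share of all loci was not taken. The means were 10.19 and 11.35, a rise of 1.16 ± 0.28 or 2.24-fold (limma adjusted p = 0.00147). The difference ran from 0.69 in KNOX-18 to 1.49 in Col, NFA-10 and SQ-8, and it passed the threshold in all 70 alternative settings.

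GASA6, which promotes cell elongation during germination and is repressed by abscisic acid, rose as well. Its level ranged from 7.65 to 12.37 in wet leaves (median 11.67) and from 10.07 to 12.72 in dry leaves (median 12.12). The 3 lowest wet arrays, Bur-0 wet 1 at 7.65, NFA-10 wet 1 at 8.21 and Ler wet 1 at 8.75, all carried replicate number 1. The means were 11.06 and 11.90, a rise of 0.84 ± 0.28 or 1.79-fold (limma adjusted p = 0.0205). By accession the difference ran from 0.22 in HR-5 to 1.80 in Bur-0.

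GASA14, a member with a long proline-rich stretch that has been tied to leaf expansion and stress tolerance, ranged from 7.17 to 10.3 in wet leaves (median 9.07) and from 6.45 to 10.32 in dry leaves (median 8.89). Its means were 9.01 and 8.50. The difference of -0.51 ± 0.32 did not pass (limma adjusted p = 0.242), with a 95% interval from -1.15 to 0.13 and a lower dry mean in 9 of 10 accessions. It passed in 4 of 70 alternative settings, and the 59 settings that left out 1 array each were not among those 4. The 4 were replicate number in the model, a score of clock genes as a covariate, arrays numbered 1 alone, and accession means. With the mean of each accession as the unit, the limma adjusted p was 0.00335. Whether GASA14 passed thus depended on how the replicate numbers and accessions were treated.

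GASA5, a repressor of flowering that acts in the gibberellin pathway, stayed near the middle of the scale, between 6.08 and 6.56 in wet leaves and between 5.97 and 6.68 in dry leaves. Its drying difference was -0.01 ± 0.03 (limma adjusted p = 0.865), with a 95% interval from -0.08 to 0.06.

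GASA2, GASA3, GASA10 and GASA11 had means in the lowest 30% of loci, which end at 4.409, and lay in the same range as the seed and flower markers, so levels at this strength of signal cannot be told from background. GASA2 and GASA3 are next to each other on chromosome 4 in the reference table, with 0 genes between them. GASA3 ranged from 3.31 to 3.65 in wet leaves and from 3.28 to 4.32 in dry leaves, a rise of 0.11 ± 0.03 (limma adjusted p = 0.00276), and it was higher in 7 accessions and lower in 3. With the accession as the unit the adjusted p of GASA3 was 0.207. GASA11 ranged from 3.53 to 4.03 in wet leaves and from 3.49 to 3.82 in dry leaves, and it fell by 0.08 ± 0.03 (limma adjusted p = 0.0162). GASA2 and GASA10 had differences of 0.00 ± 0.02 and 0.01 ± 0.02, and neither passed (adjusted p of 0.979 and 0.779).

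Within single accessions, with 3 arrays against 3, the tested members gave 1 call, GASA3 in Ler. There 0.704% of all loci were called, and 1.12% of all pairs of locus and accession were. The Ler wet arrays read 3.38, 3.48 and 3.44 and the dry arrays 4.32, 3.85 and 3.79, a difference of 0.55 ± 0.09 (limma adjusted p = 0.000871). All dry arrays of GASA3 lay above all wet arrays in 3 accessions (Ws-2, KNOX-18 with 2 dry arrays, and Ler) and below them in 1, NFA-10. In NFA-10 the dry arrays read 3.46, 3.35 and 3.44 and the wet arrays 3.56, 3.48 and 3.48. The share of all loci separated in this way was not taken, so nothing is read from these counts. Without the array labelled Ler wet 3 the difference in Ler was 0.56 (adjusted p = 0.00505). Leaving out Ler dry 1 gave a difference of 0.38 (adjusted p = 0.0291). In this model, without replicate number, the rises of GASA4 and GASA6 were seen over the accessions together. The SE within an accession was about 0.88 for each. With replicate number added, GASA4 in SQ-8 (limma adjusted p = 0.0434) and GASA6 in Bur-0 (0.0343) passed.

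**Figure D3:**
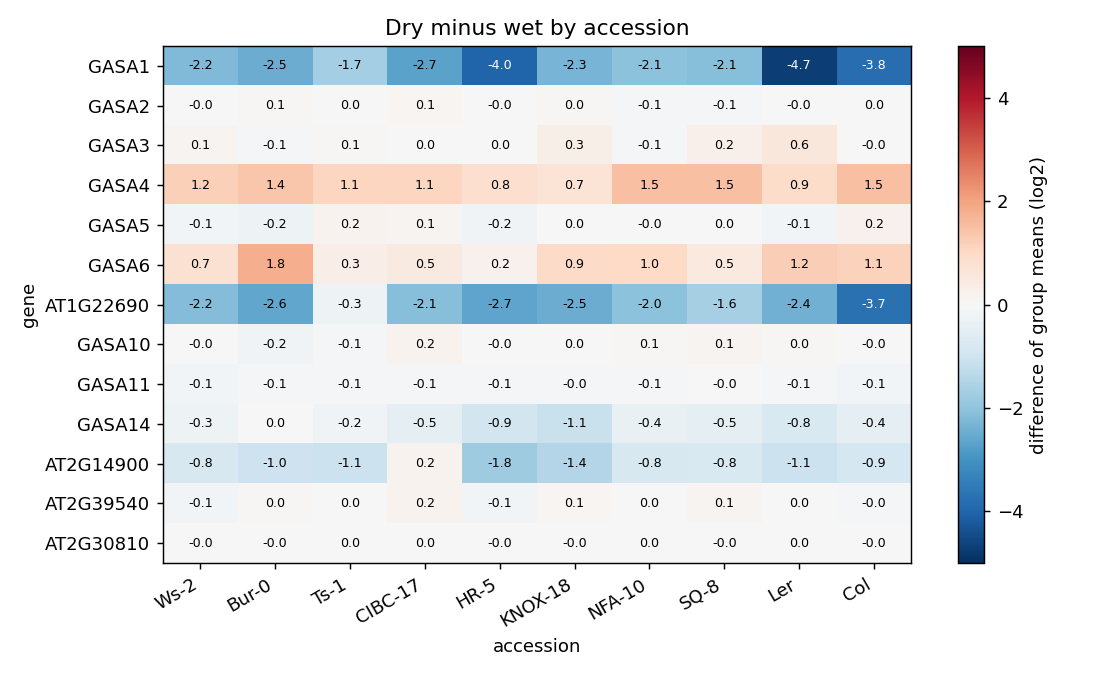
Dry minus wet difference of group means (log2) for the 10 members and 3 further GASA loci in each accession, with blue for lower and red for higher in dry leaves. The rows of GASA1 and AT1G22690 are blue in every column, with Ts-1 the palest for both, and those of GASA4 and GASA6 are red in every column.

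The next comparison asked whether the drying difference itself varied with the accession. By the interaction test in limma, 0 of 10 members passed, and 4 of 10 had an unadjusted p under 0.05. Over all loci, 0.27% passed and 8.48% had an unadjusted p under 0.05. The adjusted p was 0.746 for GASA1, 0.559 for AT1G22690, 0.0676 for GASA3 and 1 for GASA4, GASA6 and GASA14. Thus the small difference of AT1G22690 in Ts-1 and the large one of GASA1 in Ler were not shown to differ from the other accessions. For GASA3 the call depended on single arrays, with an adjusted p of 0.035 without SQ-8 dry 2 and 0.0239 without Ler dry 3. The calls over all loci fell from 56 to 28 without SQ-8 wet 3, to 34 without SQ-8 dry 3 and to 36 without SQ-8 wet 1.

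Levels were then compared among accessions, over both watering levels. Here 2 of 10 members passed, GASA3 (limma adjusted p = 0.000162) and AT1G22690 (adjusted p = 0.0135), against 41.3% of all loci. With replicate number added to the model, 6 of 10 members and 10872 of 20728 loci passed, so the count depended on how the numbers were treated. The values that follow are from the model without replicate number. GASA1 had an adjusted p of 0.0634, which depended on single arrays: without Ler dry 3 it was 0.00269, without Ts-1 dry 2 it was 0.0251, without Bur-0 dry 3 it was 0.0279, without KNOX-18 dry 1 it was 0.0291 and without Bur-0 wet 3 it was 0.0401. In wet leaves alone, 0 of 10 members passed in limma, against 20.4% of loci. An unadjusted p under 0.05 was found for 0 of 10 members, against 32.9% of loci. In dry leaves alone, 3 passed, GASA1 (adjusted p = 0.0178), AT1G22690 (0.0097) and GASA3 (3.74e-06), against 23.6%. The test of a difference between watering levels is the interaction above, which none of them passed.

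In wet leaves the order for GASA1 ran from KNOX-18 at 11.77 ± 0.33 (SD, n = 3) to Bur-0 at 10.40 ± 1.61, and no neighbours in it were further apart than both of their SDs. In dry leaves it ran from Ts-1 at 10.07 ± 1.30 through KNOX-18 at 9.46 ± 1.67 (n = 2) and SQ-8 at 9.09 ± 0.18 down to Col at 7.76 ± 0.79, HR-5 at 7.13 ± 0.80 and Ler at 6.83 ± 2.35, again with no such gap. For AT1G22690 the wet order ran from Col at 9.47 ± 0.44 to NFA-10 at 7.46 ± 0.42, with no such gap. The dry order of AT1G22690 began with Ts-1 at 8.12 ± 0.77, then SQ-8 at 6.73 ± 0.40, and ended with NFA-10 at 5.42 ± 0.15 and HR-5 at 5.38 ± 0.56. The gap between Ts-1 and SQ-8 was the 1 gap of 9 in that order that exceeded both SDs. Col, the accession with the highest AT1G22690 level in wet leaves, was in the lower part of the dry order.

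GASA14, GASA4 and GASA6 differed more between replicate numbers 3 and 1 than between wet and dry leaves. The replicate number gave 5 calls among the 10 members (GASA1, GASA4, GASA5, GASA6 and GASA14), against 30% of all loci. GASA14 was 2.26 higher on arrays numbered 3 than on those numbered 1 (limma adjusted p = 1.28e-14), and 85.6% of its variation within groups lay between numbers, where the median locus had 10.8%. In wet leaves its medians were 7.91, 8.99 and 9.78 on arrays numbered 1, 2 and 3. In dry leaves they were 6.90, 8.72 and 9.75. Number 3 lay above number 1 in 10 of 10 accessions at both watering levels, and the wet and dry ranges of number 3 covered each other.

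GASA4 was 1.85 higher on number 3 than on number 1 (limma adjusted p = 1.1e-09), with 71.9% of its within-group variation between numbers. Its wet medians were 9.51, 10.11 and 11 and its dry medians 10.62, 11.62 and 12.35 for numbers 1, 2 and 3. On number 3 the dry arrays ran from 12.14 to 12.64 and the wet arrays from 10.35 to 11.52. GASA6 was 1.66 higher on number 3 than on number 1 (adjusted p = 2.11e-08), with 66.6% of its within-group variation between numbers. Its wet medians were 9.87, 11.74 and 12.01 and its dry medians 11.57, 12.17 and 12.42. The lowest GASA6 median was thus that of the wet arrays numbered 1.

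GASA1 was 0.91 higher on number 3 than on number 1 (limma adjusted p = 0.0277), and 22.3% of its within-group variation lay between numbers. This call was lost without Bur-0 wet 1 (adjusted p = 0.0537), Bur-0 dry 3 (0.0528), KNOX-18 dry 1 (0.0567) or KNOX-18 dry 3 (0.0567). GASA5 was 0.13 higher on number 3 (adjusted p = 0.00333). For AT1G22690 the difference of 0.32 missed the threshold (adjusted p = 0.352), with 7.79% of its within-group variation between numbers.

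**Figure D4:**
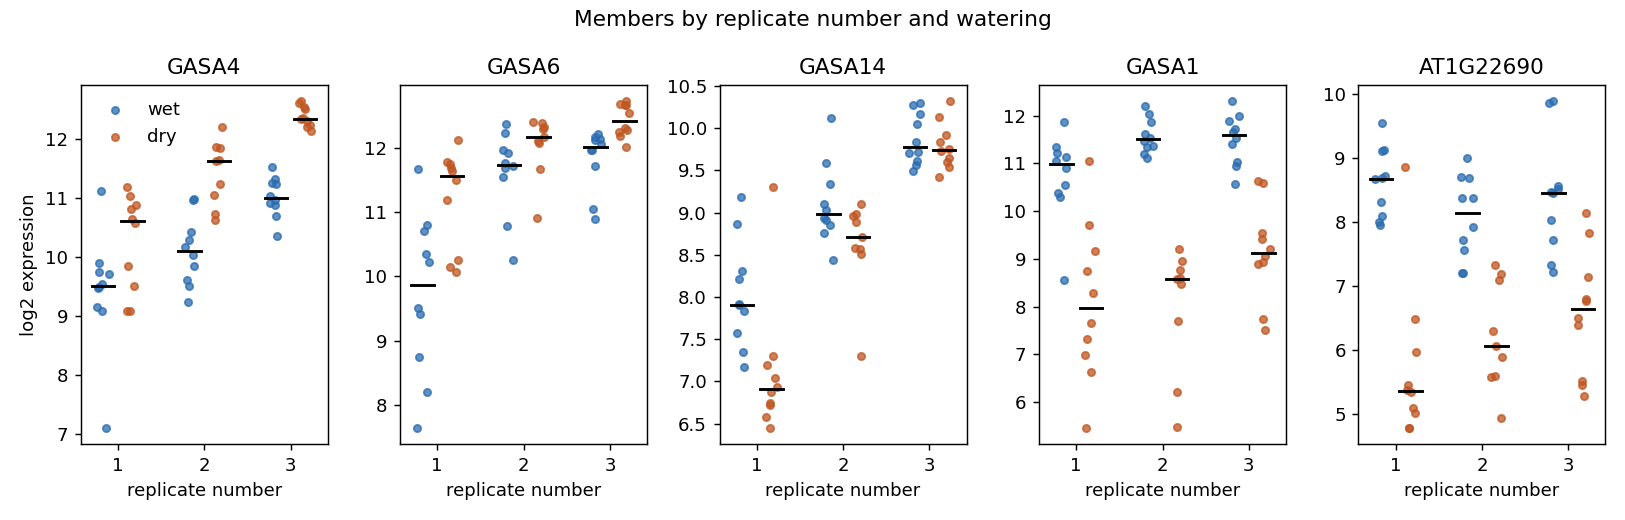
Log2 expression of GASA4, GASA6, GASA14, GASA1 and AT1G22690 by replicate number, with 9 or 10 arrays per column, wet in blue, dry in orange and the median as a bar. GASA14 lies higher on number 3 than on number 1 at both watering levels, and GASA1 and AT1G22690 are separated mainly by watering.

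The drying difference was also taken within each replicate number. For GASA4 it was 0.83 (limma adjusted p = 0.0312), 1.31 (0.00291) and 1.37 (9.38e-05) for numbers 1, 2 and 3, and for GASA6 it was 1.48 (0.00476), 0.48 (0.0447) and 0.60 (0.0393). Both genes thus rose within every number. For GASA14 it was -0.92 (0.0193), -0.49 (0.0654) and -0.08 (0.793), so that it passed on number 1 alone. The values were -2.63, -3.53 and -2.35 for GASA1 and -2.90, -1.91 and -1.82 for AT1G22690. A test of whether the drying difference varied with the number, added after the data were seen, called 0 of 10 members in limma, with 5 of 10 at an unadjusted p under 0.05. Over all loci it called 6.32%, and 21.3% had an unadjusted p under 0.05. The smallest adjusted p-values among members were 0.12 for GASA14 and 0.135 for GASA6.

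Genes of the circadian clock moved with the replicate number too. The morning genes CCA1 and LHY were lower on number 3 than on number 1 by 3.39 and 3.70 and RVE8 by 0.77, while PRR7, counted here as a morning gene, was higher by 0.95 (limma adjusted p = 3.54e-07). All 5 evening genes measured were higher on number 3, from 0.21 for ELF4 to 1.84 for GI. A clock score was taken per array as the mean of 4 morning genes (CCA1, LHY, PRR7 and RVE8) minus the mean of 5 evening genes (TOC1, ELF4, GI, PRR5 and ELF3). Its median was 3.44, 2.26 and 1.06 on wet arrays and 3.28, 2.13 and 0.22 on dry arrays of numbers 1, 2 and 3. Dry minus wet, the score had a mean of -0.37 (SD 0.31) over accessions and was below 0 in 9 of 10. With the score as a covariate the drying difference was 0.92 for GASA4 (limma adjusted p = 3.21e-05), 0.65 for GASA6 (0.0185), -0.80 for GASA14 (1.85e-05), -2.92 for GASA1 and -2.26 for AT1G22690. The part of harvest time in the difference between numbers was not tested.

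**Figure D5:**
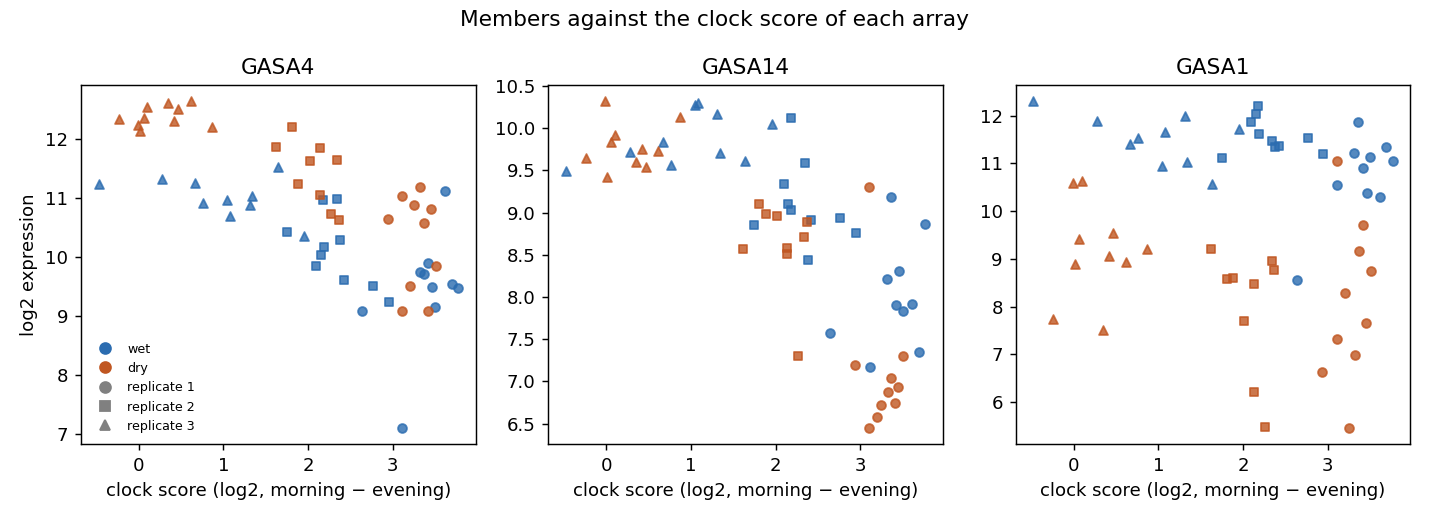
Log2 expression of GASA4, GASA14 and GASA1 on each array (y axis) against its clock score, the log2 mean of morning genes minus that of evening genes (x axis), with watering by colour and replicate number by symbol. Arrays of number 3 lie at low scores and those of number 1 at high scores, GASA4 and GASA14 are higher toward low scores, and GASA1 is separated mainly by watering.

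Each member's pattern over the 20 group means was set against that of every other locus. These correlations are descriptions over 20 points that share the watering difference, for which GASA1 and AT1G22690 had been chosen. The patterns most like GASA1 were those of GAMMA-TIP (r = 0.941), a tonoplast aquaporin, GRF8 (AT5G65430, r = 0.936), a 14-3-3 protein, and SMT1 (r = 0.93), a sterol methyltransferase. Those most like AT1G22690 were SMT1 (r = 0.935), TTL3 (r = 0.9) and XTH7 (r = 0.9), a xyloglucan endotransglucosylase. For GASA4 they were VPS9B (r = 0.925), AT4G26670 (r = 0.885) and PTAC6 (r = 0.884). For GASA6 they were EXPA8 (r = 0.885), an expansin, XYL1 (r = 0.864), a xylosidase acting on xyloglucan, and FNR1 (r = 0.843), a ferredoxin reductase. For GASA14 they were XTH4 (r = 0.903), TBL45 (r = 0.876) and AGP26 (r = 0.867), an arabinogalactan protein.

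Of 5 further loci listed as GASA-like, 3 were measured, and AT3G10185 and AT1G10588 were not analysed here. AT2G14900 ranged from 6.14 to 10.03 in wet leaves (median 8.35) and from 4.83 to 9.25 in dry leaves (median 7.25). The ranges overlapped, and AT2G14900 fell by 0.95 ± 0.24 (limma adjusted p = 0.00247) and was lower in 9 of 10 accessions. It was 1.25 higher on number 3 than on number 1 (adjusted p = 8.23e-05). AT2G39540 and AT2G30810 had means under 4 and differences of 0.02 ± 0.03 and 0.00 ± 0.01 that did not pass (adjusted p of 0.716 and 0.979).

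The genes that make, remove and perceive gibberellin were compared in the same fit. Of 10 synthesis genes, 4 rose and 0 fell, where 15.5% of all loci rose and 13.8% fell. Their median difference was 0.05 against 0.00 over all loci. At an unadjusted p under 0.05, 1 had a lower dry level, a count for which the share of all loci was not taken. GA3OX1, the enzyme of the last step to active gibberellin, rose by 0.53 ± 0.15 (limma adjusted p = 0.00455), and KAO2, an oxidase of the middle of the pathway, by 0.43 ± 0.07 (adjusted p = 7.32e-06). CYP88A3 rose by 0.16. GA2, a kaurene synthase, rose by 0.33 (limma adjusted p = 1.33e-07) and was higher in 10 of 10 accessions. Its wet mean of 3.73 lay under 4.409, where the lowest loci by mean end. That cut is a rank among loci and not a measured detection limit. The wet mean also lay in the range of the seed and flower markers, so the wet level itself cannot be told from background. Of the 7 breakdown genes, which encode GA 2-oxidases, 3 fell and 0 rose, against 13.8% and 15.5% of all loci, with a median of -0.05. At an unadjusted p under 0.05, 0 had a higher dry level, and the share of all loci was again not taken. The 3 that fell were GA2OX6 (-0.54 ± 0.21, adjusted p = 0.0446), GA2OX2 (-0.42 ± 0.10, 0.000947) and GA2OX8 (-0.26 ± 0.05, 0.000252), whose means of 3.97 and 3.71 also lay under 4.409.

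Of 9 receptor and DELLA genes, 1 rose and 0 fell in limma, where 15.5% of all loci rose and 13.8% fell, with a median of 0.04. At an unadjusted p under 0.05, 2 had a lower dry level, a count for which the share of all loci was not taken. The gene that rose was GID1A, a gibberellin receptor, by 0.47 ± 0.11 (adjusted p = 0.00146). None of the DELLA genes passed. The differences were 0.13 ± 0.15 for GAI (limma adjusted p = 0.56), 0.17 ± 0.09 for RGA1 (0.152) and 0.04 ± 0.04 for RGL3 (0.465). RGL1 (-0.26 ± 0.12, adjusted p = 0.118) and RGL2 (-0.09 ± 0.07, 0.413) were lower in dry leaves. Of these 9 genes, 6 differed among the replicate numbers, where 30% of all loci did, among them GAI, which was 0.94 higher on number 3 than on number 1 (adjusted p = 1.16e-08).

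The arrays measured RNA of whole leaves, in which fewer cells of a type and less RNA per cell cannot be told apart. Beside the members' changes, 2 of 4 vascular markers rose in dry leaves, and of 4 markers of epidermis, trichomes and guard cells 1 rose and 1 fell, where 15.5% of all loci rose and 13.8% fell. Of the 2 mesophyll genes measured, LHCB3 rose by 0.26 (limma adjusted p = 0.00124) and RCA differed by 0.07 (adjusted p = 0.388). The array mean of the epidermal list ranged from 4.8 to 5.5 in wet and from 4.75 to 5.57 in dry leaves, and that of the vascular list from 7.01 to 8.32 and from 7.05 to 8.9. Their part in the changes of the GASA genes was not tested.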

How the data were processed

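The deposited table holds log2 expression values, 1 per locus and array. MAS5 and RMA are named in the submitters' processing notes, with no version or order. The array platform, probe map and genome build are not given by the labels. Values were used as deposited, and arrays carry no read depth, so their number limits the precision. The members and lists were chosen with earlier results of these data known. Names came from a reference table of TAIR10.1, which held 20546 of 20728 loci, and its coordinates were used only to count the genes between GASA2 and GASA3. A model with 1 mean per group (20 groups) was fitted to all loci with limma 3.58.1 in R 4.3.3 (lmFit, eBayes, 39 residual degrees of freedom), with Benjamini-Hochberg adjustment over all loci and a threshold of 0.05. It gave dry minus wet as a mean over accessions and per accession, F tests among accessions and of the interaction, and, with replicate number added, an F test of that number. On simulated data for 20728 loci, a mean drying difference of 0.5 was found in 88% of changed loci. For the interaction, a shift of 2 in 1 accession was found in 89%. The changed loci were drawn from all loci, with independent noise at each locus's own SD and no difference between replicate numbers. These shares therefore do not give the power for members with a wide spread, such as GASA14 (residual SD 1.24) and GASA4 (1.11). Named genes were all members, the further GASA loci, at most 6 genes of a pathway list with the smallest adjusted p for drying, and the 3 loci most like a member. GAI and RGL3 were named after their values were seen. Alternatives were array centring, quantile normalization, leaving out dim loci, trended robust variances, a replicate block, a clock covariate, accession means, single numbers, and each array left out. Promoter and protein sequences were not used here.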

Additional observations from a re-analysis of the deposited data

How the results depend on the processing

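Of the called values, 0 turned direction under the alternatives run. GASA1 lay between -3.53 and -2.35 and AT1G22690 between -2.90 and -1.82. With dim loci left out, 0 tested members fell, 0 were called in single accessions and 29 loci had an interaction. That setting removed GASA2, GASA3, GASA10 and GASA11. The fall of GASA11 and the call of GASA3 in Ler were thus not tested there. With trended robust variances the interaction called 1 member (GASA3, adjusted p = 0.0356). With the clock covariate or the accession as the unit, 2 tested members fell, GASA11 and GASA14. Number 1 alone called 4028 loci for drying, number 2 alone 3654 and number 3 alone 792, each on 10 wet arrays and 9 or 10 dry arrays. On number 1 alone 1 tested member fell, GASA14, and 0 fell on number 2 or number 3. Accession calls numbered 4232 loci and 0 members in wet and 4901 loci in dry leaves. With single arrays left out, drying called 5782 to 6562 loci, with 3 to 3 tested members higher and 1 to 1 lower. The interaction then called 28 to 77 loci and 0 to 1 members, single accessions gave 1 to 2 calls, accessions 2 to 3 members and 8097 to 8961 loci, and numbers 4 to 5 members and 5764 to 6418 loci. The second call in a single accession was GASA10 in Bur-0 without Bur-0 wet 2 (adjusted p = 0.0419) or Bur-0 dry 3 (0.045), or GASA3 in SQ-8 without SQ-8 dry 2 (0.0485). Apart from the members removed as dim loci, the cause of these changes was not tested.

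Of 29 pairs of wet and dry arrays with the same number, 24 correlated above 0.1 in their deviations (median 0.28, from -0.2 to 0.564). The median for pairs with different numbers was -0.115, and 50 of 59 arrays correlated best with arrays of their own number. Arrays of a number thus shared variation, which the main model left in its spread. What the numbers stand for is not given, and the block was run as an alternative. With the replicate block, 2 tested members fell (GASA14 by 0.50, adjusted p = 0.00121), the interaction called 97 loci and 1 member (GASA3, adjusted p = 0.049), accessions called 6 members and 10872 loci (against 2 and 8565), and single accessions gave 3 calls (adding GASA4 in SQ-8, adjusted p = 0.0434, and GASA6 in Bur-0, 0.0343). The block moved drying from 6069 to 7083 loci.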
